A study of Mus musculus with 9 samples.

Results

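Genes that control the passage of cells through G1, 10 in number, were examined in CT26, a mouse colorectal carcinoma line: the D cyclins Ccnd1, Ccnd2 and Ccnd3, the kinases Cdk4, Cdk6 and Cdk2, the retinoblastoma gene Rb1, and the inhibitor genes Cdkn1b, Cdkn2c and Cdkn2a. They were chosen by name and function, with earlier results of these data known, and are 10 of the 53796 genes in the expression table. RNA was sequenced from 9 samples in 3 groups of 3, and in all of them Pd-l1 (gene symbol Cd274), the ligand for the PD-1 receptor of T cells, had been knocked out. The KO group then received a control vector, the WT group wild-type mouse Pd-l1, and the K262Q group the K262Q form, with a glutamine in place of a lysine. All 3 lines were made with retrovirus and puromycin, and each is described as a selected polyclonal population, so that group and polyclonal line cannot be told apart. A parental CT26 line was not analysed here. Whether the 3 samples of a line were separate cultures is not given by the labels, and p-values therefore cover only the spread among these samples, which may be technical.

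D cyclins bind Cdk4 and Cdk6, and cyclin E binds Cdk2. The active kinases phosphorylate Rb, which then releases E2F factors, and these drive the genes of S phase entry. Cdkn1b encodes p27, which inhibits cyclin E and Cdk2 complexes and is itself destroyed through the ubiquitin ligase subunit Skp2. The INK4 proteins encoded by Cdkn2a, Cdkn2b, Cdkn2c and Cdkn2d bind Cdk4 and Cdk6, and loss of Cdkn2a is common in tumour lines.

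Values are FPKM, the fragments of a gene per kilobase of its transcript after scaling to library size, with 1 value per gene and sample. The level of Cd274 matched the labels and lay between 0.357 and 0.982 FPKM in KO libraries and between 35.4 and 41.3 FPKM in the others. The size of 1 fragment in low genes put the depth at 19.6 M to 20.7 M fragments per library (M, 1e6). Only genes whose implied depth lay in a fixed range were used, so a depth outside that range could not have been found. At the longest annotated transcript, the largest counting SD in the lowest library was then 4.61% (Cdkn2c) among the 9 members above 0. This rests on that depth and covers counting error only, and a shorter transcript would give a larger SD. Of 10 colon epithelium markers 2 reached a mean of 1 FPKM (Krt18 and Krt20), Epcam and Krt8 were near 0 and Cdh1 was listed at 0 in every library. Of 6 fibroblast markers 5 reached that level, with Dcn at 0. Most markers of the labelled colon origin were therefore at or near 0. Leukocyte markers reached it in 1 of 6 (Cd68) and endothelial markers in 0 of 5, with Tek and Emcn at 0. Summed over the list, fibroblast markers reached 247.5 to 266.4 FPKM across KO libraries, 244.0 to 263.4 FPKM across WT libraries and 230.7 to 236.9 FPKM across K262Q libraries. For colon markers the same sums were 47.4 to 50.1, 43.3 to 44.9 and 40.03 to 41.6 FPKM. Both sums were lower in every K262Q library than in any other, and most of each was 1 gene, Col1a2 (189.2 to 219.5 FPKM) and Krt18 (26.1 to 35.7 FPKM). Of the tested markers 2 of 5 fibroblast and 1 of 2 colon genes had a positive log2 difference between K262Q and WT, and none of these 7 passed the test by limma. Their part in the results below was not tested.

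Among the members, transcript levels were highest for Cdk4 and the D cyclins. Cdk4, the main catalytic partner of the D cyclins, averaged 1014 FPKM over the 9 libraries and ranked 59th among all genes. Ccnd1 followed at 247.5, Ccnd2 at 112.6 and Ccnd3 at 59.7 FPKM, and the ranges of these 4 genes did not overlap. Rb1 (25.2), Cdk2 (22.1), Cdkn1b (19.3) and Cdk6 (17.5 FPKM) came next, and the range of each overlapped that of its neighbour in this order. Cdkn2c averaged 12.7 FPKM, below Cdk6 in all 9 libraries, and Cdkn2a was listed at 0 in all 9. Cdk4 made up 97.95% to 98.5% of the summed FPKM of Cdk4 and Cdk6.

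**Figure D1:**
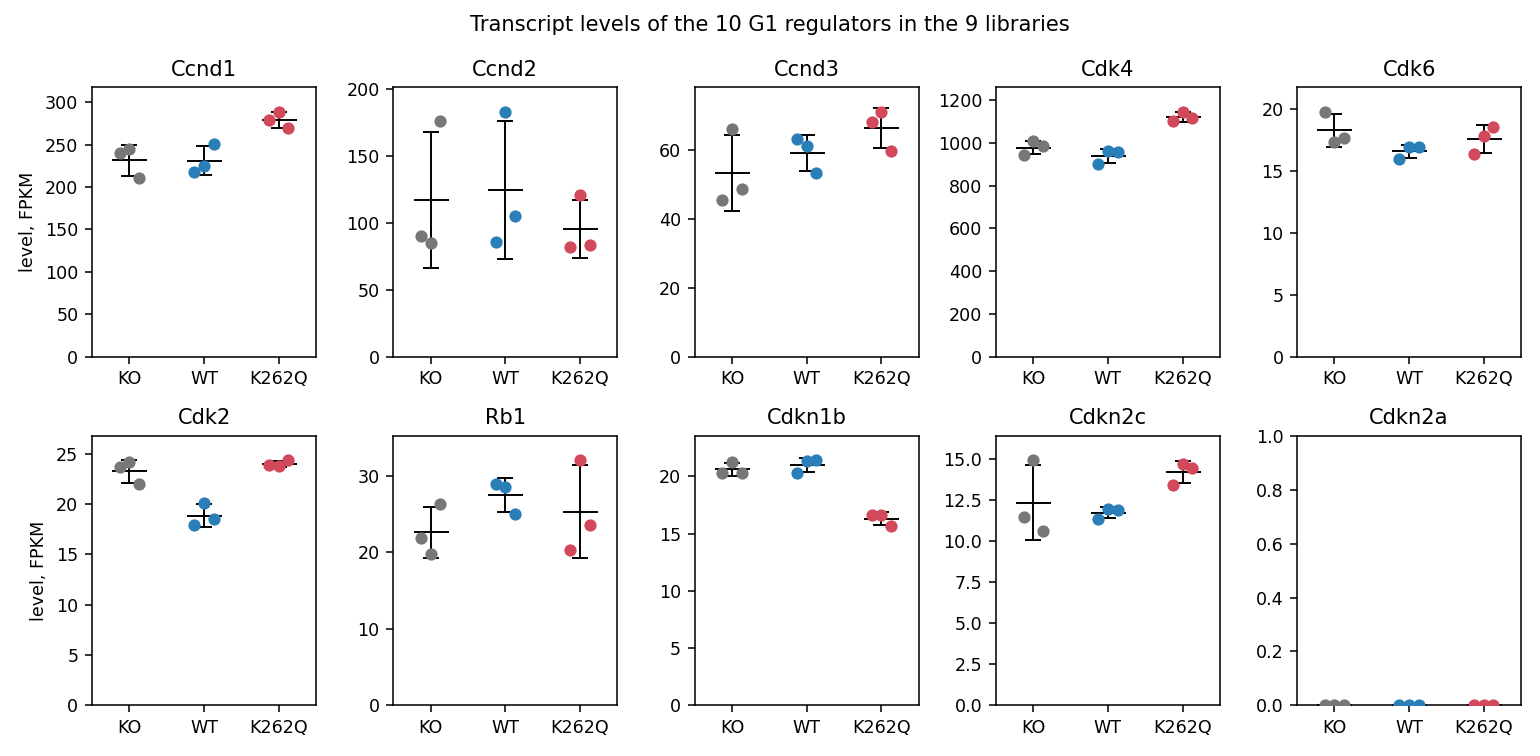
Level in FPKM (y axis, from 0, a scale of its own in each panel) of the 10 genes in each library of KO, WT and K262Q. Points are libraries and bars are the mean ± SD (n = 3). The 3 K262Q libraries lie below all others for Cdkn1b and above all others for Ccnd1 and Cdk4.

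The main comparison set K262Q against WT, where Pd-l1 transcript was at a similar level and the 2 lines differ in the substitution. Of the members 3 passed the threshold, an adjusted p under 0.05: the p27 gene Cdkn1b was 1.27-fold lower, Cdk2 was 1.26-fold higher and Cdk4 was 1.19-fold higher in K262Q. The 6 other tested members did not pass, and Cdkn2a fell under the filter of a mean of 1 FPKM. Over all 12212 tested genes 9.38% passed in either direction, 6.35% as higher and 3.02% as lower in K262Q. Of the 9 tested members 2 were called higher and 1 lower. Their median log2 difference was 0.16, against 0.03 for all tested genes. It was 0.09 against -0.02 with upper-quartile scaling and 0.07 against -0.05 without gene models under 200 bases. The values of K262Q and WT did not overlap in 5 of the 9 (Ccnd1, Cdk2, Cdk4, Cdkn1b and Cdkn2c), while 35.4% of all tested genes showed no overlap. Folds are those of limma on log2(FPKM + 1), which understates the change of low genes.

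Because Cdkn1b, Cdk4 and Cdk2 were the members that passed, their upstream sequences are shown, from 250 to 6 bases before the RefSeq start (GRCm38.p6). Capitals mark every match, on either strand, to CACGTG (E-box), to the E2F strings TTTCCCGC, TTTGGCGC, TTTCGCGC and TTTGCCGC, to TGTTTAC (FOXO) or to CCAAT (NF-Y), and no match overlapped another. Cdkn1b lies at chr6:134920151-134920395 on the plus strand, Cdk4 at chr10:127063285-127063529 on the plus strand and Cdk2 at chr10:128705057-128705301 on the minus strand.
Cdkn1b: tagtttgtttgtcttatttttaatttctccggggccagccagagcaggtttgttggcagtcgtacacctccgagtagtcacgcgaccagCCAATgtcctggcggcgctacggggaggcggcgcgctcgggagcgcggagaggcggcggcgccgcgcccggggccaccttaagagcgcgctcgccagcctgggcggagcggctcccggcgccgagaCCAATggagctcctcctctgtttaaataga
Cdk4: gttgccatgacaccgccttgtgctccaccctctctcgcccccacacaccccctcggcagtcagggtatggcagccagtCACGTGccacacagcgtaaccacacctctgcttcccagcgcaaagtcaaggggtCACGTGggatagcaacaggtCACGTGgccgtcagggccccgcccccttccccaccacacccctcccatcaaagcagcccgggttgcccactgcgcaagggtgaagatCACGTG
Cdk2: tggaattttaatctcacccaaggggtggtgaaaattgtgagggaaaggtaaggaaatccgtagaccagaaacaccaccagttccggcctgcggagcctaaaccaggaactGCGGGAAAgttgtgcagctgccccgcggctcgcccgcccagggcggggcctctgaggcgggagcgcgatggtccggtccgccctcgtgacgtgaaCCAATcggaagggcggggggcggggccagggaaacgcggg
The Cdk4 window held 4 E-boxes, beginning 172, 118, 98 and 11 bases before the start. Among the same stretch of all 32851 promoters, 5.85% held at least 1 E-box and 0.0213% held 4 or more. G and C made up 64.5% of the Cdkn1b and Cdk4 windows and 63.7% of that of Cdk2, where the median of all windows was 52.2%. The shares given here are not matched for this. The Cdk2 window held 1 E2F string, GCGGGAAA, which is TTTCCCGC read on the other strand, 140 bases before the start, and E2F strings were found in 1.78% of all windows. CCAAT was found once in Cdk2 and at 2 places in Cdkn1b (161 and 35 bases before the start), and in 33.5% of all windows. No FOXO string was found in these 3 windows, against 3.11% of all. Upstream of members that were not called, Cdk6 held 1 E-box, Cdkn2a 1 E2F string, and Ccnd3 1 FOXO string and 1 CCAAT. Of the 10 members 7 matched the table. These matches describe the sequence only, since binding of factors was not measured.

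Among the cyclins, Ccnd1 was highest in the K262Q libraries without passing the test. Ccnd1, the D cyclin most often induced by growth signals (chromosome 7, 144929931 to 144939925 in GRCm38, as for all positions below), had 239.6, 244.7 and 210.8 FPKM in replicates 1, 2 and 3 of KO. It had 218.2, 225.1 and 250.6 FPKM in the WT libraries, and 279.5, 288.8 and 269.8 in those of K262Q. Every K262Q value lay above every WT and KO value. Total FPKM was higher in every K262Q library (719525 to 741873) than in any KO (665332 to 710318) or WT library (651954 to 678848). The values above are not scaled by these totals. The log2 difference from WT was 0.27 ± 0.07 (SE, limma, Benjamini-Hochberg adjusted p = 0.0581) and from KO 0.27 ± 0.07 (adjusted p = 0.0967). Over the 9 other settings that kept all libraries, the difference from WT was 0.18 to 0.27 and that from KO 0.22 to 0.27.

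Ccnd2, a D cyclin encoded on chromosome 6 (127125162 to 127152193), was the least uniform member within groups. It measured 90.5, 85.4 and 176.1 FPKM across the KO libraries, 85.8, 183.3 and 105.3 in the WT libraries, and 82.0, 121.0 and 83.9 in those of K262Q. One library in each group stood above the other two, by more than any difference between group means. The K262Q to WT difference was -0.33 ± 0.36 on the log2 scale (limma, adjusted p = 0.595). Ccnd3, the third D cyclin (chromosome 17, 47505051 to 47599691), measured 45.6, 66.1 and 48.7 FPKM across the KO libraries, 63.4, 61.2 and 53.4 in the WT libraries, and 68.1, 71.2 and 59.8 in those of K262Q. Its groups overlapped, with a log2 difference of 0.16 ± 0.14 between K262Q and WT (limma, adjusted p = 0.510).

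Ccnd1 supplied most D cyclin transcript in 7 of the 9 libraries, between 59.4% and 65.3% of the summed FPKM. In KO replicate 3 and WT replicate 2, the libraries with the highest Ccnd2, it supplied 48.4% and 47.9%, and Ccnd2 40.4% and 39.0%. The Ccnd3 share stayed between 11.2% and 17.2%. The sum of all 3 cyclins was 402.5 ± 30.4 FPKM in KO, 415.4 ± 51.4 in WT and 441.3 ± 35.3 in K262Q (SD, n = 3), and its groups overlapped.

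**Figure D2:**
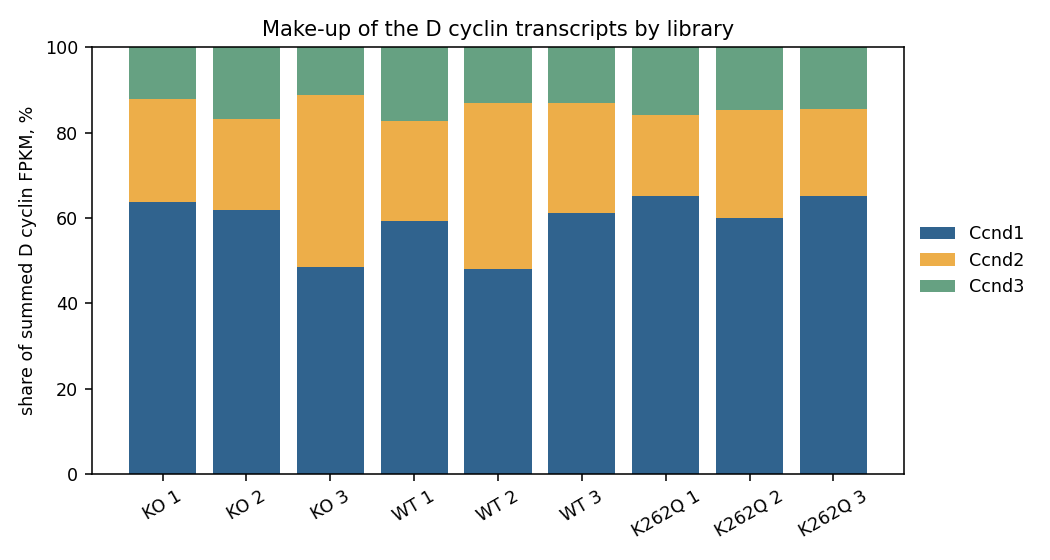
Share of Ccnd1, Ccnd2 and Ccnd3 in the summed D cyclin FPKM (y axis, percent) in each of the 9 libraries (x axis). The Ccnd2 share reaches 40.4% in KO replicate 3 and 39.0% in WT replicate 2 and lies between 19.1% and 25.7% in the others.

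Of the kinases, Cdk4 and Cdk2 rose in K262Q over WT and Cdk6 did not pass the test. Cdk4 (chromosome 10, 127063534 to 127067920) measured 944.0, 1008 and 983.5 FPKM across the KO libraries, 902.9, 961.7 and 958.0 in the WT libraries, and 1102, 1146 and 1116 in those of K262Q. All 3 K262Q values were above all 6 others. The log2 difference from WT was 0.25 ± 0.04 (limma, adjusted p = 0.0199), and that from KO was 0.20 ± 0.04 (adjusted p = 0.0615).

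Cdk2, the partner of cyclins E and A (chromosome 10, 128697939 to 128705031), measured 23.7, 24.2 and 21.99 FPKM across the KO libraries, 17.98, 20.1 and 18.5 in the WT libraries, and 23.9, 23.8 and 24.4 in those of K262Q. Here the WT libraries stood apart, below every KO and K262Q library. K262Q exceeded WT by 0.33 ± 0.05 on the log2 scale (limma, adjusted p = 0.0204), while K262Q and KO overlapped, with a difference of 0.04 ± 0.05 (adjusted p = 0.689). Cdk6, the less abundant D cyclin partner in these cells (chromosome 5, 3341485 to 3531008), measured 19.8, 17.4 and 17.7 FPKM across the KO libraries, 16.0, 16.9 and 16.9 in the WT libraries, and 16.4, 17.8 and 18.6 in those of K262Q. The K262Q and WT values overlapped, and the log2 difference was 0.08 ± 0.07 (limma, adjusted p = 0.500), which turned to -0.01 when gene models under 200 bases were left out and libraries rescaled.

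Rb1, the pocket protein that Cdk4, Cdk6 and Cdk2 phosphorylate (chromosome 14, 73183673 to 73325822), varied within groups. It measured 21.9, 19.8 and 26.3 FPKM across the KO libraries, 29.0, 28.6 and 25.03 in the WT libraries, and 20.4, 32.1 and 23.7 in those of K262Q. The K262Q group held both the second lowest and the highest value of the 9. No difference passed the test, with -0.14 ± 0.17 between K262Q and WT (limma, adjusted p = 0.638). Without K262Q replicate 1 this difference was 0.0037.

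Among the inhibitors, Cdkn1b fell in K262Q against both other lines. Cdkn1b (chromosome 6, 134920401 to 134925513) measured 20.3, 21.3 and 20.3 FPKM across the KO libraries, 20.3, 21.3 and 21.4 in the WT libraries, and 16.6, 16.6 and 15.6 in those of K262Q. The KO and WT values were interleaved, and all 3 K262Q values were below them. The log2 difference was -0.35 ± 0.04 from WT (limma, adjusted p = 0.0160) and -0.32 ± 0.04 from KO (adjusted p = 0.0361), both with 3 of 3 K262Q libraries lower. Cdkn1a, which encodes p21, a close relative of p27, is set beside it and was named after its values were seen. It measured 117.4, 122.8 and 135.9 FPKM in the WT libraries, and 123.1, 123.3 and 120.6 in those of K262Q (log2 difference -0.03 ± 0.06, limma, adjusted p = 0.754). The ratio of Cdkn1b to Cdk2 FPKM was 0.887 ± 0.033 in KO, 1.115 ± 0.050 in WT and 0.679 ± 0.032 in K262Q (SD, n = 3), and no 2 groups overlapped. This ratio was chosen after its members had been seen to differ and is given without a test.

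Cdkn2c, which encodes the INK4 protein p18 (chromosome 4, 109660876 to 109667189), measured 11.4, 14.9 and 10.6 FPKM across the KO libraries, 11.3, 11.9 and 11.9 in the WT libraries, and 13.4, 14.7 and 14.5 in those of K262Q. K262Q lay above WT in every library, and KO replicate 2 lay above all K262Q libraries. The log2 difference between K262Q and WT was 0.26 ± 0.11 (limma, adjusted p = 0.176). Cdkn2d, the gene of the INK4 protein p19, is described here because of its relation to Cdkn2c and was chosen after its values were seen. It measured 19.9, 22.12 and 22.03 FPKM in the WT libraries, and 27.6, 30.7 and 28.2 in those of K262Q, and rose by 0.42 ± 0.10 (limma, adjusted p = 0.0481). Cdkn2d lost this call without the filter on low values, without trend and with upper-quartile or TMM scaling, with adjusted p up to 0.104.

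The 3 calls of the main comparison depended on single libraries. Cdkn1b lost its call without WT replicate 2, K262Q replicate 2 or K262Q replicate 3, where its adjusted p by limma was 0.0543, 0.0624 and 0.0658. Cdk4 lost it without those 3 or WT replicate 1, with adjusted p between 0.0576 and 0.0781, and also with all libraries but no filter on low values (adjusted p = 0.0833). Cdk2 lost it without any 1 of the 6 WT or K262Q libraries, with adjusted p between 0.0531 and 0.0787. The log2 differences themselves moved little over all 9 such fits: -0.37 to -0.32 for Cdkn1b, 0.22 to 0.27 for Cdk4 and 0.30 to 0.38 for Cdk2. They moved more over the 9 other settings that kept all libraries. There they were -0.44 to -0.35 for Cdkn1b, 0.16 to 0.25 for Cdk4 and 0.24 to 0.35 for Cdk2. Among all tested genes the number called fell from 1145 to 33 to 49 without WT replicate 1, WT replicate 2, K262Q replicate 2 or K262Q replicate 3. Of all 1145 calls 67.8% were higher in K262Q, and this share was 43.4% with upper-quartile scaling, 56.4% with TMM scaling and 33.5% without gene models under 200 bases; the directions and calls of Cdkn1b, Cdk4 and Cdk2 were the same under these 3.

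**Figure D3:**
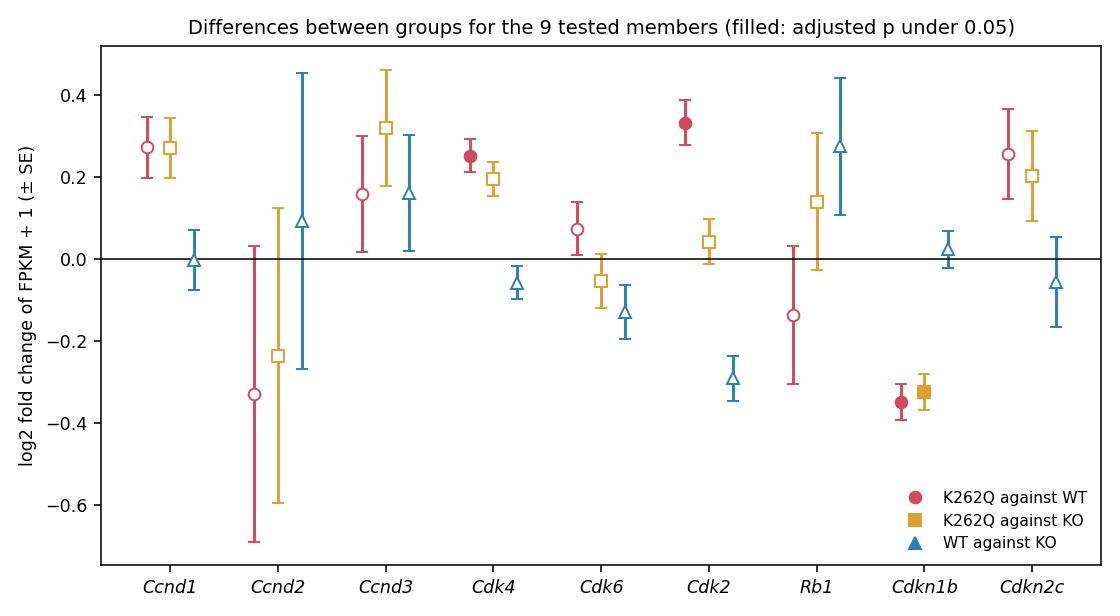
Log2 fold change of FPKM + 1 (y axis) for the 9 tested members (x axis) in the 3 comparisons, with the SE of limma as error bars and filled symbols where the adjusted p was under 0.05. Filled symbols are Cdk4, Cdk2 and Cdkn1b for K262Q against WT and Cdkn1b for K262Q against KO; none is filled for WT against KO.

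Re-expression of wild-type Pd-l1 was examined by setting WT against KO. None of the 9 tested members passed the test by limma, beside 0.0819% of all tested genes, and 1 of the 9 had an unadjusted p under 0.05, as did 5.62% of all tested genes. That member was Cdk2, lower in all 3 WT libraries, with a log2 difference of -0.29 ± 0.05 (limma, adjusted p = 0.444). Cdk6 was the other member without overlap, at -0.13 ± 0.07 (limma, adjusted p = 0.885), and 9.23% of all tested genes showed no overlap. Cdkn1b differed by 0.02 ± 0.04, Cdk4 by -0.06 ± 0.04 and Ccnd1 by -0.002 ± 0.07, and Rb1 by 0.28 ± 0.17, the largest positive value (adjusted p = 0.885 for Rb1). The median over the 9 members was -0.002.

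In K262Q against KO, Cdkn1b was the 1 member of 9 that passed, beside 1.26% of all tested genes. Ccnd1, Cdk4 and Cdkn1b showed no overlap, while 26.9% of all tested genes showed none. Both comparisons with K262Q share its 3 libraries and are not independent of each other. The call of Cdkn1b was lost in 8 of the 9 fits that left out 1 library, all but that without KO replicate 2, with an adjusted p by limma of up to 0.116. Compared with the average of KO replicates 1 and 3, KO replicate 2 was shifted toward K262Q in 7 of the 9 members above 0. Ccnd3 had 66.1 FPKM and Cdkn2c 14.9 FPKM in KO replicate 2, against averages of 47.2 and 11.01 FPKM in KO replicates 1 and 3. Rb1 (19.8 against 24.1 FPKM) and Cdkn1b (21.3 against 20.3 FPKM) were shifted away from K262Q. How often such a shift occurred over all tested genes was not counted. Without KO replicate 2, 8.95% of all tested genes (1093) passed in this comparison and 4 members did: Cdkn1b (log2 difference -0.30, limma, adjusted p = 0.0188), Cdkn2c (0.34, adjusted p = 0.0250), Cdk4 (0.22, adjusted p = 0.0349) and Ccnd3 (0.48, adjusted p = 0.0366).

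Genes around the members were read from 5 lists. In K262Q against WT, 6.35% of all tested genes rose and 3.02% fell by the same test. Of 11 other G1 and S phase cyclins, kinases and inhibitors 9 were tested, and 4 rose and 0 fell in K262Q against WT, with a median log2 difference of 0.42. The count that rose was 2 with upper-quartile scaling or without trend, 3 with TMM scaling or the replicate block and 0 without the filter on low values. Ccna2, the cyclin of S phase, rose from 90.8 ± 3.53 to 122.8 ± 6.84 FPKM (SD, n = 3; limma, adjusted p = 0.0282). Cdc25a, the phosphatase that activates Cdk2, rose from 11.03 ± 0.792 to 18.4 ± 1.37 FPKM (limma, adjusted p = 0.0290). Ccne1, a cyclin E and the first partner of Cdk2, rose from 33.2 ± 1.52 to 51.9 ± 0.322 FPKM (limma, adjusted p = 0.0424). This call was lost without the filter, without trend, with upper-quartile scaling and with the replicate block, with adjusted p up to 0.0934, and the other gene that rose was Cdkn2d. Ccna2 and Cdc25a lost theirs without the filter (adjusted p by limma 0.0593 and 0.0647).

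Of 12 pocket protein and E2F genes, all tested, 3 rose and 1 fell. E2f1, an activating E2F, rose by 0.26 ± 0.05 on the log2 scale (limma, adjusted p = 0.0227), and E2f3, another activator, by 0.28 ± 0.07 (adjusted p = 0.0440). Rbl1, the gene of the pocket protein p107, fell by 0.16 ± 0.04 (limma, adjusted p = 0.0393). E2f7, a repressive E2F, was the fourth, named beyond the 3 of the rule after its values were seen. E2f1, E2f3 and E2f7 were not called without gene models under 200 bases, where 0 of the 12 rose, and 1 rose with upper-quartile or TMM scaling. E2f3 and E2f7 each kept their call in 2 of the 9 other settings that kept all libraries. Their adjusted p by limma reached 0.108 and 0.161 in these settings. Rbl1 lost its call without the filter, without trend and with the replicate block, with adjusted p by limma up to 0.0626.

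Of 20 E2F target genes of S phase entry 18 were tested, 6 rose and 0 fell, and all 18 log2 differences were above 0, in these values and under every scaling run, where 56.0% of all tested genes were above 0. Without the filter 2 of them rose, and the call of Rrm2 was lost (limma, adjusted p = 0.0502). The count that rose was 4 with the replicate block and 5 with upper-quartile scaling. It was 7 with a mean of at least 5 FPKM and 9 with only the 2 groups compared. The smallest adjusted p-values were those of Mcm5, a subunit of the replicative helicase (51.1 ± 0.898 to 66.5 ± 2.46 FPKM, SD, n = 3; limma, adjusted p = 0.0160), of Tyms, thymidylate synthase (55.9 ± 2.42 to 67.9 ± 1.43 FPKM, adjusted p = 0.0181), and of Rrm2, a subunit of ribonucleotide reductase (144.3 ± 2.14 to 194.4 ± 7.72 FPKM, adjusted p = 0.0236). The list's median was 0.23.

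Over all tested genes 9.38% passed in either direction in K262Q against WT. Among 12 genes for the turnover of G1 cyclins and p27, 11 were tested and 1 rose. That gene was Skp2, with 17.4, 17.3 and 15.9 FPKM in the WT libraries, and 25.1, 25.2 and 24.5 in those of K262Q (log2 difference 0.54 ± 0.12, limma, adjusted p = 0.0393), a call lost without the filter or without trend (adjusted p 0.0845 and 0.0503). KO replicate 2 held 22.9 FPKM of Skp2 and the other KO libraries 17.4 and 15.6. Fbxw7, the F-box gene for cyclin E turnover, was listed at 330.1 FPKM in K262Q replicate 1 and between 4.27 and 5.38 FPKM in the other 8 libraries. Whether this single value is an estimate that failed was not tested. Fbxw7 was named after its values were seen, and its difference did not pass the test (limma, adjusted p = 0.426). Of 15 output genes of the ERK pathway, which induces Ccnd1 in many cells, 14 were tested, 0 rose and 1 fell. This stands beside the same 9.38% of all tested genes. Of the 14 log2 differences 2 were above 0, where 56.0% of all tested genes were. This count was 1 of 14 with upper-quartile or TMM scaling or without gene models under 200 bases. Spry2, a feedback inhibitor of receptor tyrosine kinase signalling, fell by 0.50 ± 0.12 (limma, adjusted p = 0.0448), a call lost without the filter, without trend and with the replicate block, with adjusted p up to 0.0986. With 1 library left out, between 0 and 23 genes of the 5 lists passed in K262Q against WT, against 16 with all libraries: 0 without WT replicate 1, WT replicate 2, K262Q replicate 2 or K262Q replicate 3. The count was 1 where K262Q replicate 1 was left out, 2 where WT replicate 3 was, 9 where KO replicate 1 was and 23 where KO replicate 2 was. Over all tested genes, 276, 341, 703 and 1580 were called in these fits, in the same order, against 1145 with all libraries. Where 0 list genes passed, 33 to 49 of all tested genes did.

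In WT against KO, 0 genes of the 5 lists passed by limma, and 4 of 64 had an unadjusted p under 0.05, where 5.62% of all tested genes did. In K262Q against KO the only one of the 64 was E2f1, beside 1.26% of all tested genes. It rose by 0.32 ± 0.05 (limma, adjusted p = 0.0375). In this comparison no pocket protein or E2F gene was called without the filter, with only the 2 groups compared, without trend or with the replicate block. Without KO replicate 2, 16 of the 64 passed in that comparison, beside the 8.95% of all tested genes. For the 18 tested E2F targets, 0 log2 differences were above 0 in WT against KO (median -0.09; 2 above 0 with TMM scaling, 3 with upper-quartile scaling or without gene models under 200 bases). In K262Q against KO 17 of the 18 were above 0 (median 0.14), and both comparisons share the KO libraries. Of all tested genes 40.6% were above 0 in WT against KO and 52.5% in K262Q against KO.

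**Figure D4:**
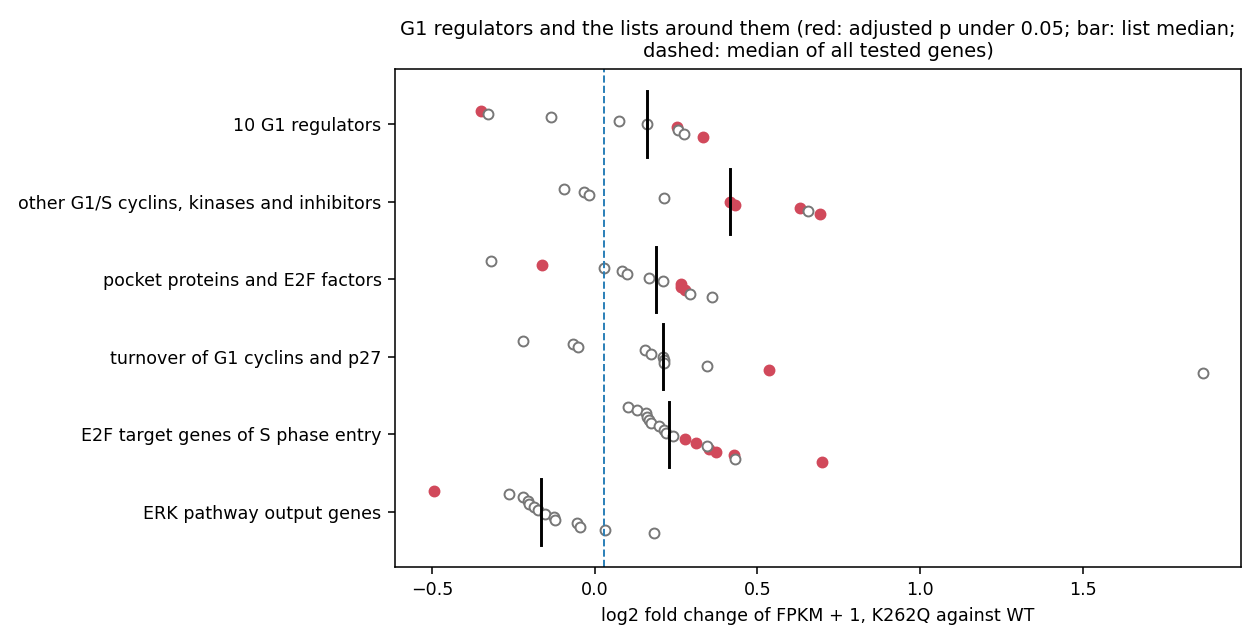
Log2 fold change of FPKM + 1 between K262Q and WT (x axis) for each tested gene of the G1 regulators and 5 surrounding lists (y axis). Red points have an adjusted p under 0.05, black bars are list medians and the dashed line is the median of all tested genes (0.03). The E2F targets all lie above 0, and the point near 1.87 is Fbxw7, whose value rests on K262Q replicate 1 alone.

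Cdkn2a, the gene of p16 and p19ARF (chromosome 4, 89274471 to 89294653), and its neighbour Cdkn2b, the gene of p15, 11.65 kb away, were listed at 0 in all 9 libraries. On the other side, Mtap, which encodes an enzyme of methionine salvage, lies 93.39 kb away and measured between 41.95 and 48.7 FPKM. Of 40 protein-coding genes within 1 Mb, Cdkn2a counted in, 29 were listed at 0 in every library and 3 averaged at least 1 FPKM (Mtap, Klhl9 and Focad), and 14 of the 40 are type I interferon genes of the Ifna family. DNA was not measured here. A value of 0 in this table can be a failed estimate: Rpl13, a ribosomal protein gene that every cell uses, and Cdt1, a licensing factor of replication, were also listed at 0 in all 9 libraries.

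**Figure D5:**
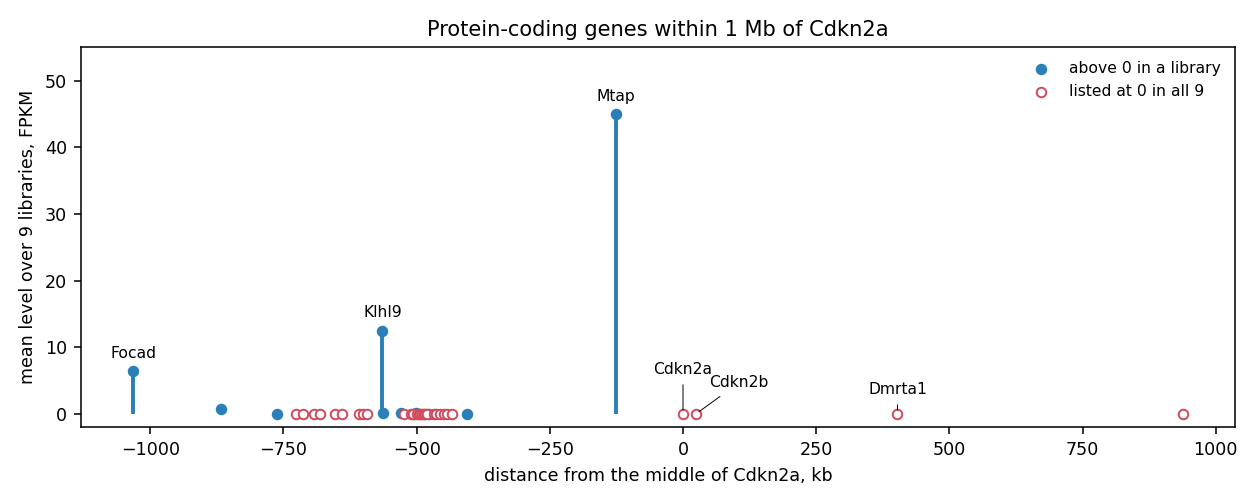
Mean FPKM over the 9 libraries (y axis) of the 40 protein-coding genes within 1 Mb of Cdkn2a, against the distance of their middle from that of Cdkn2a in kb (x axis). Open circles are genes listed at 0 in every library, among them Cdkn2a, Cdkn2b and Dmrta1; Mtap stands at 45.0 FPKM.

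Several members share their locus with genes on the other strand, and the strand of the reads is not given in the sources used here, so reads of the 2 genes cannot be told apart where they overlap. Cdk4 overlaps Tspan31 (mean 90.4 FPKM), Ccnd1 overlaps LTO1 (39.5), Ccnd2 overlaps Gm43126 (26.2), Ccnd3 overlaps Bysl (16.8) and Rb1 overlaps Rcbtb2 (25.1) and Lpar6 (4.41 FPKM). Cdk6 overlaps Gm17590, listed at 139.2 FPKM, above Cdk6 itself. Cdk2 overlaps Pmel, at 0.102 FPKM, and no gene was annotated on the other strand of Cdkn1b or Cdkn2c.

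For the 3 tested members that varied most over the libraries, the most similar profiles were found by the root mean square (RMS) difference of centred log2(FPKM + 1) values over 9 libraries. For Ccnd2 these were Nacc2 (0.183) and Tmem140 (0.227), where the median gene stood at 0.452. Nacc2 measured 10.1 FPKM in KO replicate 3 and 10.3 FPKM in WT replicate 2, its highest values, in the same libraries as Ccnd2. For Rb1 they were Adat2 (0.106) and Mpc1 (0.115), with a median gene at 0.254. For Ccnd3 they were Rbmxl1 (0.0841) and Spata13 (0.0962), with a median gene at 0.231. These genes share the libraries, their depth and their scaling with the members, and the likeness is a description.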

How the data were processed

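RNA-seq libraries of 9 CT26 samples, 3 each of KO, WT and K262Q, were used, grouped by their titles. The submitters' processing notes name STAR 2.5.4a, Cufflinks 2.2.1, Cuffdiff and the build mm10. The values the authors deposited are FPKM, with a single number for each gene in each sample, and read counts were not used here. Positions came from GENCODE mouse release M21 (GRCm38) and upstream sequences from RefSeq (GRCm38.p6).

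The log2 of FPKM plus a pseudocount of 1 was fitted with limma 3.58.1 under R 4.3.3, with lmFit, group contrasts and a mean-variance trend in eBayes. The fit held the 3 groups and all 9 samples. Genes averaging 1 FPKM or more (12212) were tested from both sides, p-values were adjusted over them by Benjamini-Hochberg, and calls were made under 0.05. With 3 samples against 3, no exact permutation p can fall below 0.1, so none is given. The method was tested on simulated data. Depth was inferred from the value of 1 fragment in genes with 1 transcript, against transcript length, from genes with an implied depth in a fixed range.

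The members and lists were chosen with earlier results of these data known. Named were all members, Cd274, up to 3 called genes per list with the smallest adjusted p and the 2 most similar named genes of the 3 most variable members; exceptions are stated. The value of a leukocyte marker is not reported here. Each result was also computed with 0.1 as pseudocount, with the filter dropped or raised to 5 FPKM, with upper-quartile or TMM factors, with just the compared groups in the fit, without the trend, with replicate number as a block, without gene models under 200 bases, and leaving out each library. Python 3.11.15, pandas 2.3.3, numpy 2.4.6 and matplotlib 3.10.9 were used.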

Additional observations from a re-analysis of the deposited data

How the results depend on the processing

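In K262Q against WT, 3 members passed in the values reported, and between 2 and 4 under the 9 other settings that kept all libraries: 2 without a filter, 4 with a mean of at least 5 FPKM or with only the 2 groups compared. With each library left out in turn, between 0 and 4 passed in K262Q against WT, between 0 and 4 in K262Q against KO, and 0 in all WT against KO fits. In K262Q against KO, 1 member passed in the values reported, 2 with TMM scaling or without gene models under 200 bases, and 0 with only the 2 groups compared, without trend or with the replicate block. Over all tested genes this comparison had 154 calls in the values reported, 306 with TMM scaling and 386 without short gene models. It had 10 with only the 2 groups, 37 without trend and 5 with the replicate block. Without a filter it had 55, with a mean of at least 5 FPKM 206 and with upper-quartile scaling 234. Genes of the 5 lists called in K262Q against WT numbered 16, 3 without a filter, 9 without trend, 9 with the replicate block, and 0 to 23 with a library left out. In K262Q against KO they numbered 1, with 0 without a filter, with only the 2 groups, without trend or with the replicate block, 2 with a mean of at least 5 FPKM or upper-quartile scaling, 3 without short gene models, 4 with TMM scaling and 0 to 16 with a library left out. Across all genes, 1145 were called in K262Q against WT in the values reported and 353 without a filter. With a mean of at least 5 FPKM 1207 were called, and with only the 2 groups 1382. Without trend 775 were called, and with the replicate block 789. With a library left out, 33 to 1580 were called in K262Q against WT and 11 to 1093 in K262Q against KO. The cause of these changes was not tested. Samples with the same replicate number deviated together by correlations of -0.0361 to 0.0776, so the numbers were not taken to pair them; with the replicate block 3 members passed in K262Q against WT and 0 in WT against KO.

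Reversed directions concerned differences that passed no test. For WT against KO, Ccnd1 became 0.0276 with upper-quartile scaling, 0.0214 with TMM scaling and 0.0403 without short gene models, and lay between -0.0682 and 0.0387 with a library left out. Ccnd2 lay between -0.22 and 0.42 and Cdkn2c between -0.15 and 0.0809 with a library left out. Without short gene models Cdk6 was -0.0130 for K262Q against WT, and Cdk2 was -0.0056 for K262Q against KO. With a library left out Rb1 lay between -0.31 and 0.0037 for K262Q against WT. For K262Q against KO, Rb1 lay between -0.0350 and 0.28, Ccnd2 between -0.42 and 0.10 and Cdk6 between -0.0921 and 0.0018.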
